A study of Homo sapiens with 8 samples.

Results

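The comparison described here is that of untreated H1299 cells with stable expression of the p53 mutant R273H (R273H line) with untreated H1299 cells harboring an empty vector (EV). H1299, a long-used cell line from a lymph node metastasis of a lung carcinoma of the non-small cell type, makes no p53 of its own. Both groups therefore lack wild-type p53, and the R273H cells carry in addition a p53 cDNA with the R273H substitution in the DNA-binding domain, driven by a CMV promoter. The R273H line was raised after transfection by picking and propagating G418-resistant colonies, and how many colonies entered it is not given in the sources used here. The EV cells had been infected with the vector and were obtained from another laboratory. An effect of the mutant protein and any other difference between the lines cannot be told apart in this design. The labels give passages 15 to 20 for both lines and an etoposide treatment for further libraries, which were not used here. Small RNA was sequenced from 2 libraries of each line. The members are all 754 human miRNAs listed in the table of this comparison, of 945 miRNAs listed in any table of the series and 1021 features of the same table, and 304 of them passed a filter on low values.

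miRNAs are short RNAs that are cut from hairpins by Drosha and Dicer. One or both arms of the hairpin, named 5p and 3p, enter an Argonaute protein and direct it to mRNAs that pair with the seed, bases 2 to 8 of the mature miRNA. miRNAs with the same seed form a family that shares predicted targets, and hairpins that lie close together can be cut from one transcript, so that family, cluster and arm are separate ways to read one profile. Wild-type p53 raises some miRNA genes directly, with the miR-34 genes as the best known, whereas R273H belongs to the hotspot mutants that have lost this sequence-specific binding.

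The mature sequences on which the results turn are given first, because members of a family differ in few bases outside the seed. They are RefSeq sequences, with GRCh38.p14 as the build of that table, written 5′ to 3′ with the seed in capitals. Of the 304 miRNAs tested, 270 had a sequence there.
The first set has the seed AAAGUGC, or AAGGUGC and GUGCAAA in miR-18a-5p and miR-19a-3p, and comes from the miR-17-92 cluster and its paralogs.
miR-17-5p: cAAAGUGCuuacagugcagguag
miR-20a-5p: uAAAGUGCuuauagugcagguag
miR-106a-5p: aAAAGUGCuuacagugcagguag
miR-106b-5p: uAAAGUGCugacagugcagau
miR-93-5p: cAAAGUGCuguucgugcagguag
miR-18a-5p: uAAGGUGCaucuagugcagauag
miR-19a-3p: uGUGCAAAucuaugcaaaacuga
The second set is the miR-15/16 family (AGCAGCA), of which some members were higher in R273H and others were not.
miR-15a-5p: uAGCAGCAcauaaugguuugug
miR-16-5p: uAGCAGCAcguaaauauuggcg
miR-15b-5p: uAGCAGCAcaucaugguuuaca
The third set is the miR-29 family (AGCACCA), which holds the most abundant miRNA called higher.
miR-29a-3p: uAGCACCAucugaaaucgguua
miR-29b-3p: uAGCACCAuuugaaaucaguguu
miR-29c-3p: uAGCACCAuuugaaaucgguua
The fourth set shows miRNAs that were lower in R273H, with miR-100-5p as the abundant relative of miR-99a-5p.
miR-125b-5p: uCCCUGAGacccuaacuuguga
miR-99a-5p: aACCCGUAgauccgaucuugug
miR-100-5p: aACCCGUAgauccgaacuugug
miR-708-5p: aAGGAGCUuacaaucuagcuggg
miR-378a-3p: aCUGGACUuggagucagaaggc
miR-31-5p: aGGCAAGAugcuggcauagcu
The last set gives the 5p and 3p miRNAs of miR-140 and let-7a, whose arm ratio differed between the lines.
miR-140-5p: cAGUGGUUuuacccuaugguag
miR-140-3p: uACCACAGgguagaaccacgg
let-7a-5p: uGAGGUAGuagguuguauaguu
let-7a-3p: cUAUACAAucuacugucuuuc
miR-17-5p and miR-106a-5p differ at 1 of 23 bases, miR-17-5p and miR-20a-5p at 2 of 23, miR-29a-3p and miR-29c-3p at 1 of 22, and miR-99a-5p and miR-100-5p at 1 of 22. How reads that fit several such sequences were counted is not given in the sources used here, so the split of reads within these pairs is uncertain.

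The deposited value is a normalized read count, that is, the reads of a feature divided by a size factor of the library. The 4 libraries held 249817 to 536991 miRNA reads, EV replicate 2 being the shallowest. One read was worth 0.692 to 1.59 normalized counts. Reads on tRNA were 3.75% to 6.92% of all counted reads in EV and 1.72% to 2.67% in R273H. The size factor of a library was applied to these features and to the miRNAs alike. On which features it was estimated is not settled by the sources used here. A difference was called where limma gave a p-value under 0.05 after Benjamini-Hochberg adjustment, on log2(normalized count + 1), over all miRNAs with a mean of at least 3 normalized counts. Fold changes of low miRNAs are understated on this scale. The study calls the libraries of a line biological replicates, but neither it nor the labels say that they came from separate cultures. The p-values therefore measure the spread between these samples, which may be technical. An exact permutation test of 2 against 2 libraries cannot give a p-value under 0.333.

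Of the 304 miRNAs tested, 62 were called (20.4%), 33 of them higher (10.9%) and 29 lower (9.54%) in R273H. Abundant miRNAs of the miR-17-92, miR-15/16 and miR-29 groups were among the higher ones, and miR-31-5p, miR-125b-5p, miR-378a-3p and miR-30d-5p were among the lower ones. In all 62 the libraries of the lines did not overlap, but this was so for 187 of all 304 (61.5%). A fold of at least 2 was reached by 58 of the 62, while 37 further miRNAs reached it without being called. The call depended on having both R273H libraries. Without R273H replicate 1 no miRNA was called by limma (56 had an unadjusted p-value under 0.05), and none without R273H replicate 2 (67). It was 51 without EV replicate 1 and 41 without EV replicate 2. The direction of all 62 was kept in each of these 4 fits, and 48 stayed at least 2-fold in each. The split into higher and lower moved with the scaling. It was 14 higher and 27 lower after TMM rescaling, 18 and 25 with size factors taken over miRNAs alone, 11 and 23 with DESeq2, and 32 and 22 at equal upper quartiles. TMM moved the median log2 fold change of the tested miRNAs, which was 0.10, by -0.17. A bulk library does not tell a change in every cell from a change in some of the cells.

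Of the 45 miRNAs that the study took into its pathway analysis, 44 were tested and 44 called. The study chose these on the same libraries, so the count is no independent evidence. The other 18 called miRNAs are not on that list, and 14 of them were higher and 4 lower. The list is shorter than the full set of miRNAs that the study took as regulated, so some of the 18 may belong to that set. They included miR-17-5p, miR-18a-5p and miR-19a-3p of the miR-17-92 cluster, miR-106a-5p, miR-15a-5p, miR-29c-3p and the passenger strands let-7a-3p, miR-30e-3p and miR-10a-3p among the higher ones. The 4 lower ones were miR-126-3p, miR-185-5p, miR-204-5p and miR-152-3p. The study itself names mir-17, with no arm given, as up-regulated. It also required a fold change of at least 2, which the calls here did not. On the scale used here miR-19a-3p (0.85), miR-185-5p (-0.96) and miR-126-3p (-0.90) were under 2-fold.

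miRNAs were called at every abundance. With classes set by the mean normalized count over the 4 libraries, 9 miRNAs were higher and 2 lower of 85 at 3 to under 10. There were 17 higher and 16 lower of 129 at 10 to under 100, 3 and 8 of 57 at 100 to under 1000, 3 and 2 of 26 at 1000 to under 10000, and 1 and 1 of 7 at 10000 and over. The share called was 12.9%, 25.6%, 19.3%, 19.2% and 28.6% from the lowest to the highest class, against 20.4% over all. Over all tested miRNAs, called or not, the median size of the log2 fold change was 0.80 in the lowest class. It was 0.71, 0.52 and 0.45 in the next classes and 0.58 in the highest. The median standard error fell from 0.63 in the lowest to 0.26 in the highest class. How much of these sizes is spread between libraries was not tested. Replicates also came closer together with abundance in EV, with a median log2 difference between the libraries of 0.79 in the lowest and 0.17 in the highest tested class. In R273H it fell from 0.58 in the lowest class through 0.50 and 0.36 to 0.31, and was 0.47 in the highest class of 7 miRNAs. The number of miRNAs over 2-fold went from 32 of 85 to 1 of 7. The 450 miRNAs under the filter held 0.072% to 0.096% of each library's miRNA reads.

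The 10 most abundant miRNAs took 72.1% to 76.2% of the miRNA reads in each library. miR-21-5p, a miRNA that is high in many carcinomas, alone took 41.3% and 41.3% of them in EV and 43.8% and 38.2% in R273H, with a log2 difference of 0.08 between the lines (standard error 0.25, adjusted p = 0.86, limma). Its EV values lay between those of the R273H libraries. Second was miR-29b-3p, a repressor of collagen and DNA methyltransferase mRNAs. It had 20234 and 17987 normalized counts in EV and 45447 and 39920 in R273H (a log2 difference of 1.16, standard error 0.24, adjusted p = 0.0031, limma). Its share of the miRNA reads went from 4.52% to 5.44% in EV to 9.80% to 11.04% in R273H. The next of the called ones was miR-31-5p, which lies in an intron of MIR31HG (chromosome 9, 21512114 to 21512184, minus strand, GRCh37). It had 20578 and 21106 normalized counts in EV and 13459 and 8821 in R273H (a log2 difference of -0.94, standard error 0.26, adjusted p = 0.017, limma). No other of the 10 was called. Those not yet named were miR-30c-5p, miR-23a-3p, miR-100-5p, miR-24-3p, miR-27a-3p, miR-103a-3p and miR-19b-3p, with log2 fold changes from -0.63 (miR-100-5p) to 0.46 (miR-30c-5p).

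Genomic clusters were hairpins of 1 strand with neighbours at most 10 kb apart, placed on GRCh37. Their totals used only miRNAs whose mature sequence comes from 1 gene. Of 35 totals tested, 8 were called (22.9%), 4 higher and 4 lower in R273H. Fewer totals were called with any 1 library left out, and such a fit has fewer libraries to judge the spread by. The fold of 2 of the 8 called totals moved by over 1.5 times when 1 library was left out. With size factors of miRNAs only, 1 total was higher and 2 lower.

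The miR-17-92 cluster, an oncogenic polycistron raised by MYC, had the smallest p-value of the clusters. It lies in exons of MIR17HG on chromosome 13 (92002859 to 92003645, plus strand). Its total was 5422 and 6361 normalized counts in EV and 18684 and 10948 in R273H (a log2 difference of 1.28, standard error 0.25, adjusted p = 6.7e-05, limma). Both R273H libraries were above both EV libraries, and R273H replicate 1 was the highest. Of its 8 tested miRNAs, 5 were called and all of these were higher. miR-18a-5p had 2125 and 2354 normalized counts in EV and 11158 and 4385 in R273H (a log2 difference of 1.64, standard error 0.34, adjusted p = 0.0029, limma). Its 2 R273H libraries were far apart, and the log2 fold change was 0.97 without R273H replicate 1 and 2.32 without R273H replicate 2. miR-20a-5p had 404 and 510 in EV and 1546 and 965 in R273H (1.43, standard error 0.31, adjusted p = 0.0034, limma). miR-17-5p, which like miR-20a-5p represses the cell cycle inhibitor p21 and E2F1, had 519.9 and 556 in EV and 1470.3 and 1115 in R273H (1.25, standard error 0.29, adjusted p = 0.0052, limma). Both were apart from EV in each R273H library. miR-19a-3p had 2103 and 2462 in EV and 4195 and 4013 in R273H (0.85, standard error 0.26, adjusted p = 0.027, limma), and it was not called with edgeR and TMM, with DESeq2, or with size factors of miRNAs only. The passenger strand miR-20a-3p had 4.85 and 9.56 in EV and 27.7 and 36.4 in R273H (2.06, standard error 0.51, adjusted p = 0.0076, limma).

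The members of the cluster did not all move alike. miR-17-3p, from the other arm of the miR-17 hairpin, had 189.0 and 403 normalized counts in EV and 205 and 284 in R273H (a log2 difference of -0.19, adjusted p = 0.75, limma), so its lines overlapped. miR-92a-1-5p had a log2 fold change of -0.17 and miR-19b-1-5p of 0.76, and neither was called. miR-19b-3p and miR-92a-3p, which also come from a second hairpin elsewhere, were outside the total. miR-19b-3p had 6692 and 8181 in EV and 11882 and 8514 in R273H (0.44, adjusted p = 0.24, limma), and miR-92a-3p 475 and 419 in EV and 537 and 541 in R273H (0.27, adjusted p = 0.56, limma). The log2 fold changes within the cluster thus ran from -0.19 to 2.06.

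The paralogous clusters had smaller totals or a smaller change. The cluster on the X chromosome (MIR363 to MIR106A, 133303408 to 133304308, minus strand) had totals of 13.2 and 7.96 normalized counts in EV and 62.6 and 19.6 in R273H (a log2 difference of 1.68, standard error 0.52, adjusted p = 0.015, limma). Its only called miRNA was miR-106a-5p, with 6.92 and 1.59 in EV and 56.4 and 11.6 in R273H. The total differed by 0.87 on the log2 scale without R273H replicate 1 and by 2.50 without R273H replicate 2. For miR-106a-5p these values were 1.47 and 3.66, and the difference was 3.37 without EV replicate 1 and 1.76 without EV replicate 2. miR-106a-5p is the member that differs from miR-17-5p at 1 base, and miR-17-5p was far more abundant in the same libraries. The miR-106b-25 cluster within MCM7 (chromosome 7, 99691183 to 99691697, minus strand) had totals of 7382 and 8340 in EV and 11466 and 10479 in R273H (0.48, standard error 0.25, adjusted p = 0.13, limma). None of its 6 tested miRNAs was called. A partial list of products of the MYC-raised cluster and its paralog in MCM7 had 11 tested miRNAs. Of these, 5 were higher and 0 lower, beside 10.9% and 9.54% over all miRNAs tested. Their median log2 fold change was 0.53 against 0.10 over all miRNAs tested. The list left out the tested miR-25-5p (-1.49), miR-106b-3p (-0.38), miR-92a-1-5p (-0.17), miR-93-3p (-0.13) and miR-19b-1-5p (0.76), none of which was called.

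The second cluster called higher on chromosome 13 was that of MIR16-1 and MIR15A in DLEU2 (50623109 to 50623337, minus strand), a locus often deleted in chronic lymphocytic leukemia. Its total was 196 and 209 normalized counts in EV and 511 and 412 in R273H (a log2 difference of 1.18, standard error 0.29, adjusted p = 0.0013, limma). miR-15a-5p, a repressor of BCL2 and cyclin mRNAs, had 188 and 198 in EV and 483 and 382 in R273H (1.15, standard error 0.31, adjusted p = 0.014, limma), and the passenger miR-15a-3p 6.92 and 7.97 in EV and 21.6 and 24.9 in R273H (1.52, standard error 0.50, adjusted p = 0.037, limma). The third miRNA, miR-16-1-3p, had 0.69 and 3.19 in EV and 6.16 and 4.44 in R273H and was not called. The paralogous cluster of MIR15B and MIR16-2 in an intron of SMC4 (chromosome 3, 160122376 to 160122613, plus strand) had 3898 and 4236 in EV and 3492 and 3425 in R273H (-0.23, standard error 0.24, adjusted p = 0.53, limma). The difference between the responses of these clusters was not tested. miR-16-5p, made by both, had 2584 and 2386 in EV and 6073 and 5926 in R273H (1.27, standard error 0.26, adjusted p = 0.0029, limma), and reads do not tell its genes apart. Together, these chromosome 13 clusters held 11 of the 12 tested miRNAs placed on that chromosome, where 7 were higher and 0 lower, against 26 higher and 19 lower of 233 tested miRNAs with 1 place.

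**Figure D1:**
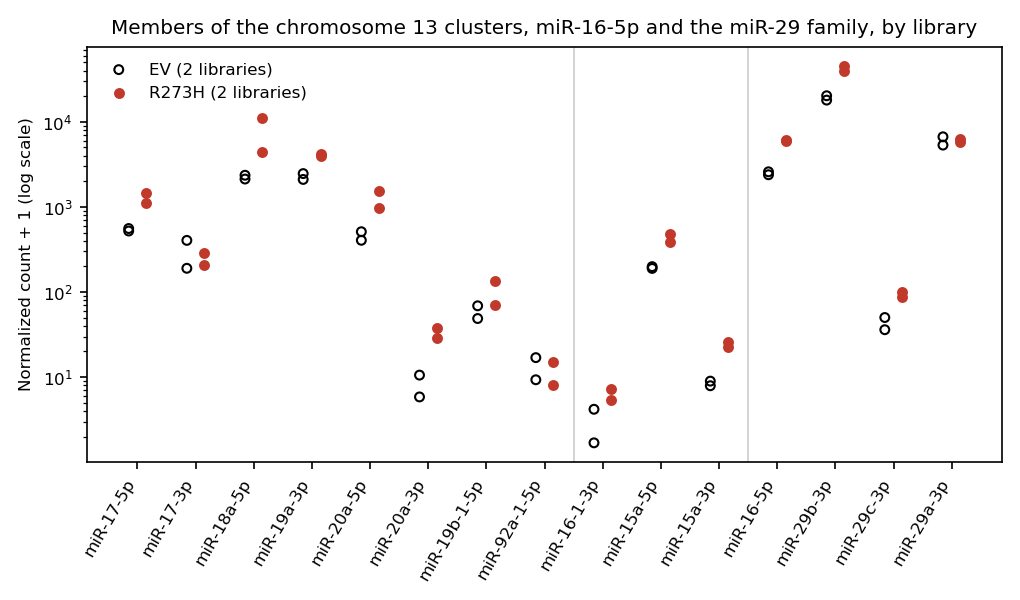
Normalized count + 1 (log scale) in each library for the 8 tested miRNAs of the miR-17-92 cluster (left), the 3 of the MIR16-1 and MIR15A cluster (middle), and miR-16-5p with the miR-29 family (right). Open circles are the 2 EV and red circles the 2 R273H libraries. The lines overlap for miR-17-3p, miR-92a-1-5p and miR-29a-3p, and lie apart for the miRNAs called higher.

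A further total called higher was that of MIR29C and MIR29B2 (chromosome 1, 207975197 to 207975868, minus strand). It was 51.2 and 35.1 normalized counts in EV and 108 and 89.8 in R273H (a log2 difference of 1.19, standard error 0.40, adjusted p = 0.016, limma), mostly from miR-29c-3p. The cluster of MIR29A and MIR29B1 in LINC-PINT (chromosome 7, 130561506 to 130562298, minus strand) had 5345 and 6679 in EV and 5779 and 6407 in R273H (0.03, standard error 0.24, adjusted p = 0.94, limma). Its total was nearly all miR-29a-3p. Its less abundant miR-29b-1-5p, which only this hairpin makes, had 7.62 and 6.38 in EV and 21.6 and 33.8 in R273H (1.81, standard error 0.50, adjusted p = 0.016, limma). The members of this cluster thus ran from 0.02 to 1.81, and the abundant miR-29b-3p fits both clusters.

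Of the 4 cluster totals called lower, 3 rested on 1 called miRNA each. In MIR99A and MIRLET7C (chromosome 21, 17911409 to 17912231, plus strand) it was miR-99a-5p, a repressor of mTOR, with 45.0 and 38.3 normalized counts in EV and 8.21 and 8.0 in R273H (a log2 difference of -2.22, standard error 0.47, adjusted p = 0.0031, limma). Its neighbour let-7c-5p had 11.1 and 3.19 in EV and 9.23 and 8.0 in R273H, which overlap. In the AATK locus (chromosome 17, 79099076 to 79107108, minus strand) it was miR-657, with 36.7 and 22.3 in EV and 5.13 and 6.22 in R273H (-2.16, standard error 0.51, adjusted p = 0.0058, limma). Its neighbour miR-338-3p had 2.77 and 6.38 in EV and 2.05 and 4.44 in R273H. In MIR940 and MIR4717 (chromosome 16, 2321748 to 2324692, plus strand) it was miR-940, with 25.6 and 30.3 in EV and 8.21 and 7.11 in R273H. The fourth was a set of 13 miRNAs of the imprinted locus on chromosome 14 (101491901 to 101532004, plus strand), each under the filter on its own. EV held 18 and 12 reads of them and R273H 0 and 2, a ratio of 15.2 with a counting interval of 3.86 to 131 (95%, exact). EV reads fell on 12 of the 13, and the R273H reads all on 1. This total passed the filter only through its EV values, so the few R273H reads are no evidence of their own. The log2 fold change was -3.30, and -2.56 without R273H replicate 1 and -4.04 without R273H replicate 2.

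Among the other 27 totals, none had an adjusted p-value under 0.05. That of MIR23A, MIR27A and MIR24-2 (chromosome 19, 13947101 to 13947473, minus strand) had 27970 and 29384 normalized counts in EV and 27587 and 22463 in R273H (a log2 difference of -0.20, adjusted p = 0.60, limma), with only miR-24-2-5p called in it. That miRNA had 135.0 and 172 in EV and 67.7 and 62.2 in R273H (-1.22, standard error 0.36, adjusted p = 0.023, limma). The cluster of MIRLET7A2 and MIR100 (chromosome 11, 122017230 to 122023016, minus strand), a relative of the MIR99A cluster, had 18751 and 12023 in EV and 11895 and 7871 in R273H (-0.63, standard error 0.25, adjusted p = 0.053, limma). The oncogenic MIR182 to MIR183 cluster had a log2 fold change of -0.13, with miR-182-5p at -0.35, and the 10 tested miRNAs of the MIR532 to MIR502 cluster ran from -0.97 to 1.58 with a total at -0.27. In the cluster of MIR132 and MIR212, the total was not called (0.76, adjusted p = 0.15, limma), while miR-132-3p, a CREB-induced miRNA, had 11.1 and 14.3 in EV and 39.0 and 33.8 in R273H (1.45, standard error 0.46, adjusted p = 0.032, limma). The most abundant miRNAs of further clusters, miR-23b-3p, miR-191-5p, miR-222-3p, miR-374b-5p, miR-424-5p, miR-532-5p and let-7e-5p, had log2 fold changes from -0.65 (miR-222-3p) to 0.26 (miR-374b-5p), and none was called. Of the 27 clusters with at least 2 tested miRNAs, all tested members had the same sign in 12, and calls in both directions occurred in 0.

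**Figure D2:**
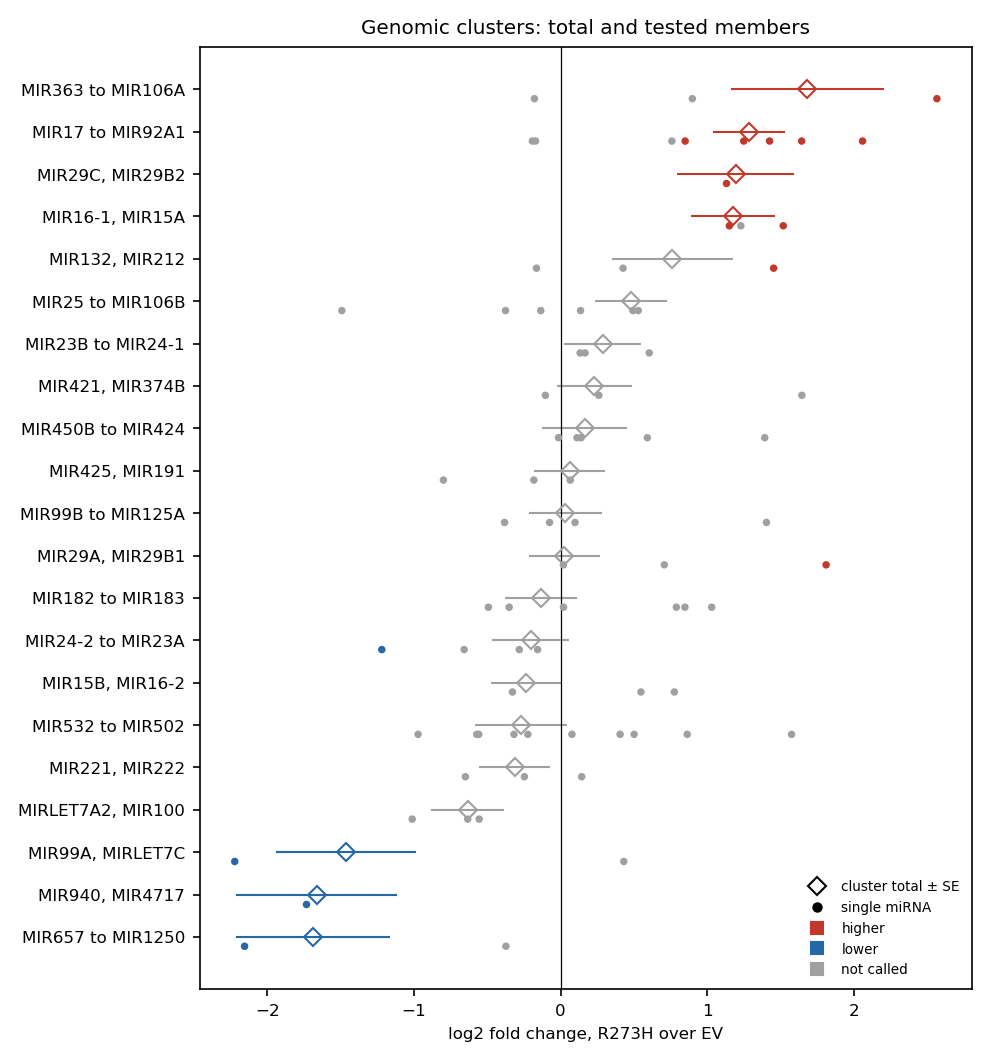
log2 fold change (R273H over EV) of cluster totals (diamonds, with standard errors) and of their tested miRNAs (points), for clusters with 3 or more tested miRNAs or a called total with a tested miRNA. Colours give the limma call; totals near 0, as for MIR29A and MIR29B1, can hold members far from 0.

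Read by seed, 48 of 224 family totals were called (21.4%), 24 higher and 24 lower. No seed was called by limma without R273H replicate 1 (39 had an unadjusted p-value under 0.05) or without R273H replicate 2 (47), and 27 were without EV replicate 2. With DESeq2 there were 6 higher and 23 lower. Of the 224 seeds, 178 held 1 miRNA and so repeat its value, and 26 had 2 or more tested miRNAs. Among these 26, the called totals were the miR-29, miR-18, miR-125 and miR-30-3p seeds, and in 9 all tested members had the same sign. Totals leave out miRNAs without a RefSeq sequence, among them miR-30d-5p, miR-30b-5p and miR-130a-3p.

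The miR-29 family (AGCACCA) had totals of 25607 and 24684 normalized counts in EV and 51285 and 46355 in R273H (a log2 difference of 0.96, standard error 0.23, adjusted p = 0.0016, limma). Leaving out any 1 library moved this to between 0.88 and 1.03. miR-29b-3p made up 83.5% of the family. miR-29c-3p had 49.2 and 35.1 in EV and 98.5 and 86.2 in R273H (1.13, standard error 0.39, adjusted p = 0.043, limma) and was not called with edgeR and TMM or with DESeq2. miR-29a-3p had 5323 and 6662 in EV and 5739 and 6349 in R273H (0.02, adjusted p = 0.97, limma). Most of the difference in the seed was therefore that of miR-29b-3p, the member that 2 hairpins make.

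In the larger families the total moved less than its called members. The seed AAAGUGC had totals of 7737 and 8823 normalized counts in EV and 13911 and 12048 in R273H (a log2 difference of 0.65, standard error 0.25, adjusted p = 0.0503, limma), just past the threshold. Of its 6 tested members, miR-17-5p, miR-20a-5p and miR-106a-5p were higher. The most abundant ones, miR-106b-5p (3574 and 4318 in EV, 5565 and 5782 in R273H) and miR-93-5p (3230 and 3433 in EV, 5271 and 4172 in R273H), had log2 fold changes of 0.53 and 0.49 and were not called. The seed AGCAGCA had 6687 and 6818 in EV and 9912 and 9630.0 in R273H (0.53, standard error 0.25, adjusted p = 0.11, limma). In it, miR-16-5p and miR-15a-5p were higher, and miR-15b-5p, the most abundant in EV, had 3644 and 3949 in EV and 2992 and 3053 in R273H (-0.33, adjusted p = 0.38, limma). The seed of miR-18a-5p (AAGGUGC) followed that miRNA almost alone.

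The let-7 family (GAGGUAG), which represses RAS, MYC and HMGA2 mRNAs, had the most tested members and no call. Its 9 members summed to 8441 and 10946 normalized counts in EV and 9924 and 7348 in R273H (a log2 difference of -0.17, standard error 0.25, adjusted p = 0.68, limma), and the lines overlapped. Its lowest member was let-7d-5p, with 60.9 and 71.7 in EV and 25.7 and 36.4 in R273H (-1.09, adjusted p = 0.067, limma). The seed of miR-30a-5p, miR-30c-5p and miR-30e-5p (GUAAACA) had a total at 0.44 (adjusted p = 0.18, limma) and 0.27 once miR-30b-5p and miR-30d-5p were added by name. miR-30d-5p went the other way, with 684 and 618 in EV and 147 and 180 in R273H (-1.99, standard error 0.31, adjusted p = 0.00031, limma). The families of miR-92a-3p, miR-181a-5p, miR-301a-3p and miR-148b-3p had totals between -0.35 and 0.39 and were not called. In the last of these, miR-152-3p had 10.4 and 12.8 in EV and 4.10 and 0.89 in R273H (-2.01, standard error 0.63, adjusted p = 0.031, limma), against -2.73 without R273H replicate 1 and -1.29 without R273H replicate 2.

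miRNAs of the miR-125 and miR-99/100 seeds were lower or not called. miR-125b-5p had 3440 and 2356 normalized counts in EV and 1237 and 1259 in R273H (a log2 difference of -1.19, standard error 0.28, adjusted p = 0.0054, limma). It carried the total of its seed (-1.16, standard error 0.29, adjusted p = 0.0021, limma). The seed ACCCGUA was dominated by miR-100-5p, with 18717 and 11984 in EV and 11875 and 7849 in R273H (-0.63, adjusted p = 0.12, limma), and its total had a log2 fold change of -0.63 (adjusted p = 0.064, limma). The fall of miR-99a-5p was therefore hardly seen in its family. miR-99b-5p, the third member, had 104 and 100.4 in EV and 102 and 92.4 in R273H, with overlapping lines.

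Several lower miRNAs with the smallest p-values came from introns of protein-coding genes. In such introns 12 of 118 tested miRNAs were lower, near the share of 9.54% over all miRNAs tested. miR-708-5p, in an intron of TENM4 (chromosome 11, 79113066 to 79113153, minus strand), had 51.2 and 59.0 normalized counts in EV and 1.03 and 0.89 in R273H. These were 111 reads in EV against 2 in R273H, a ratio of 56.2 with a counting interval of 15.2 to 470.2 (95%, exact). miR-378a-3p, from an intron of PPARGC1B (chromosome 5, 149112388 to 149112453, plus strand), had 792 and 991 in EV and 237 and 266 in R273H (a log2 difference of -1.82, standard error 0.30, adjusted p = 0.00045, limma). miR-625-3p in FUT8 (chromosome 14, 65937820 to 65937904, plus strand) had 87.9 and 76.5 in EV and 21.6 and 17.8 in R273H (-2.01, standard error 0.41, adjusted p = 0.0029, limma). In all of them both R273H libraries lay well under both EV libraries. miR-3192-3p had 11.8 and 22.3 in EV and no read in R273H, which was at least 5.93-fold lower when 3 reads per library are set as the limit. Both miR-708-5p and miR-3192-3p passed the filter only through their EV values, so their low R273H reads are no evidence of their own. miR-138-5p, made by 2 genes, had 121 and 116 in EV and 30.8 and 32.9 in R273H (-1.87, standard error 0.38, adjusted p = 0.0029, limma), and miR-1307-5p 859 and 921 in EV and 215 and 413 in R273H (-1.57, standard error 0.33, adjusted p = 0.0031, limma). miR-130a-3p, miR-185-5p and miR-126-3p fell by 1.08, 0.96 and 0.90 on the log2 scale.

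The largest increases were of miRNAs that were at or near 0 reads in EV. miR-582-5p, in an intron of PDE4D (chromosome 5, 58999432 to 58999529, minus strand), had no read in EV and 20.5 and 13.3 normalized counts in R273H, at least 4.94-fold higher. miR-887-3p and miR-592 likewise had no read in EV. The first was at least 2.34-fold higher and the second at least 1.95-fold. miR-139-5p had 1 read in EV and 36 in R273H, a ratio of 35.5 with a counting interval of 5.98 to 1442, and its log2 fold change was 2.80 without EV replicate 1 and 4.18 without EV replicate 2. Of the 9 miRNAs called higher in the class of 3 to under 10 normalized counts, all had 3 or fewer reads in EV in sum. They passed the filter only through their R273H values. A call in this class leaves room for few EV reads, so the low EV reads are no evidence of their own. The 62 called miRNAs held 12 whose fold moved by over 1.5 times when 1 library was left out. These were miR-139-5p, miR-18a-5p, miR-103a-2-5p, miR-106a-5p, miR-942-5p, miR-30e-3p, miR-3529-3p, miR-576-3p, let-7a-3p, miR-628-5p, miR-152-3p and miR-204-5p. Among the higher ones of these, the lowest log2 fold changes reached were 0.88 for let-7a-3p and 0.97 for miR-18a-5p, both without R273H replicate 1, and 0.95 for miR-3529-3p without EV replicate 2. miR-3529-3p matches the reverse complement of miR-7-5p over all of its 24 bases, so its reads and those of its antisense partner cannot be told apart unless strand was used in counting.

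The arms of a hairpin were compared through log2((5p + 1)/(3p + 1)) within a library, which does not depend on the size factor except through the 1 added. Hairpins were taken by miRNA name, and some names, such as let-7a, come from more than 1 gene. Of 80 such hairpins with both arms tested, 11 ratios were called (13.8%), 6 shifted toward the 5p arm and 5 toward the 3p arm in R273H. The number was 0 by limma without R273H replicate 1 (14 had an unadjusted p-value under 0.05), 1 without R273H replicate 2 or EV replicate 2, and 5 without EV replicate 1. An arm was itself called in 7 of these hairpins, miR-140, let-7a, miR-151a, miR-32, miR-324, miR-30e and miR-17, and in miR-101, miR-25, miR-454 and miR-99b neither arm was. The less abundant arms of the 80 hairpins had 10 higher and 5 lower calls (18.8%), and the more abundant arms 4 higher and 7 lower (13.8%).

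The clearest arm difference was that of miR-140, whose hairpin lies in an intron of WWP2 (chromosome 16, 69966984 to 69967083, plus strand). miR-140-5p had 4.15 and 3.19 normalized counts in EV and 21.6 and 17.8 in R273H, while miR-140-3p had 343 and 241 in EV and 226 and 200.0 in R273H. The log2 ratio moved by 2.58 toward the 5p arm (standard error 0.50, adjusted p = 0.00020, limma), and by 2.48 to 2.69 with any 1 library left out. The 3p arm stayed the major one. In let-7a, the passenger let-7a-3p had 4.15 and 7.97 in EV and 47.2 and 11.6 in R273H beside a guide strand whose lines overlapped (6692 and 8457 in EV, 8246 and 5710 in R273H). The log2 ratio of let-7a differed by -1.99 (standard error 0.52, adjusted p = 0.013, limma), and by -1.28 without R273H replicate 1 and -2.69 without R273H replicate 2. let-7a-5p is made by 3 genes and let-7a-3p by 2, so this ratio is not that of 1 hairpin. let-7a-2-3p, the passenger of MIRLET7A2, went the other way (a log2 difference of -1.01) and was not called.

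Passenger strands were also called higher beside a major arm that was not called in miR-32 and miR-30e. miR-32-3p had 2.77 and 4.78 normalized counts in EV and 17.4 and 22.2 in R273H, and the ratio differed by -1.73 (standard error 0.52, adjusted p = 0.025, limma). miR-30e-3p had 9.0 and 3.19 in EV and 35.9 and 15.1 in R273H, and the ratio differed by -1.61 (standard error 0.54, adjusted p = 0.040, limma), but by -0.82 without EV replicate 2 and -0.93 without R273H replicate 1. In miR-99b the difference was -1.48, with a 3p arm of 4.15 and 3.19 in EV and 10.3 and 12.4 in R273H, and in miR-101 it was 1.66 toward a 5p arm of 1.38 and 3.19 in EV and 7.18 and 8.89 in R273H. These minor arms rest on few reads. The minor arm had the lower values in R273H in miR-25, where miR-25-5p had 11.8 and 12.8 in EV and 3.08 and 4.44 in R273H beside 390 and 343 against 417 and 388 for miR-25-3p (-1.63, standard error 0.50, adjusted p = 0.025, limma).

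In miR-324 and miR-17 it was the arm with more reads that was higher. miR-324-5p had 32.5 and 30.3 normalized counts in EV and 64.6 and 107 in R273H, whereas miR-324-3p had 26.3 and 20.7 in EV and 22.6 and 18.7 in R273H. The log2 ratio differed by 1.55 (standard error 0.51, adjusted p = 0.038, limma). For miR-17 the ratio differed by 1.44 (standard error 0.50, adjusted p = 0.041, limma), from the values of miR-17-5p and miR-17-3p above. In miR-151a, the 3p arm fell from 38.8 and 38.3 in EV to 9.23 and 19.6 in R273H beside 1733 and 1031 against 2166 and 1414 for the 5p arm (1.83, standard error 0.54, adjusted p = 0.025, limma), with 1.02 without R273H replicate 1 and 2.65 without R273H replicate 2. Both arms were called higher in miR-15a and miR-20a and both lower in miR-9, miR-378a and miR-625, opposite calls occurred in 0 hairpins, and 1 arm alone was called in 16. The mean log2 ratio had a different sign in the lines for 5 hairpins, miR-132, miR-330, miR-362, miR-652 and miR-642a, which were named after their values were seen, and none of these ratios was called.

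**Figure D3:**
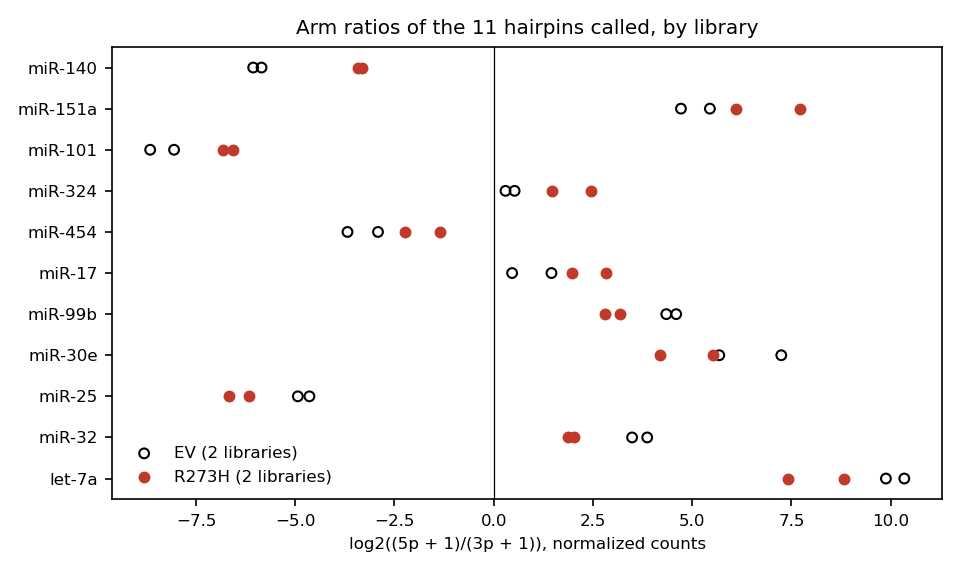
log2((5p + 1)/(3p + 1)) of normalized counts in each library for the 11 hairpins with a called arm ratio, ordered by the difference between the lines. Open circles are the EV and red circles the R273H libraries; values above 0 mean more of the 5p arm, and in all 11 the lines do not overlap, most narrowly in miR-30e.

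Among miRNAs that wild-type p53 raises, 7 of 9 names were listed, 5 were tested, 1 was higher and 1 lower, beside 10.9% higher and 9.54% lower over all miRNAs tested. Neither line makes wild-type p53. miR-34c-5p had 26.3 and 30.3 normalized counts in EV and 109.8 and 76.4 in R273H (a log2 difference of 1.66, standard error 0.40, adjusted p = 0.0065, limma). miR-34a-5p had 13.2 and 17.5 in EV and 16.4 and 26.7 in R273H, and miR-34b-5p 45.7 and 68.5 in EV and 99.5 and 78.2 in R273H, and neither was called. miR-194-5p had 18 and 31.9 in EV and 4.10 and 7.11 in R273H (-1.96, standard error 0.54, adjusted p = 0.014, limma). miR-192-5p, whose gene neighbours one of its genes, had 86.5 and 62.2 in EV and 84.1 and 61.3 in R273H, the same range in both lines.

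Of the cell type lists, the epithelial, blood, muscle and liver lists had low sums. The nervous system list was higher, mostly through miR-128-3p and miR-9-5p. The 6 epithelial miRNAs, of the miR-200 family and miR-205-5p, summed to 2.77 and 11.2 normalized counts in EV and 2.06 and 16.0 in R273H. miR-200c-3p, miR-141-3p and miR-429 had no read in either EV library, while miR-205-5p had reads in all 4 libraries. The blood miRNAs summed to 12.8 to 19.6 over all libraries, with 5 of 8 names listed, and miR-142-3p at 0 in both R273H libraries. The muscle miRNAs summed to 0.69 and 0 in EV and 4.10 and 22.2 in R273H, of which miR-1 gave 16.0 in R273H replicate 2, and miR-133a-3p and miR-206 were at 0 in the other 3 libraries. The liver miRNA miR-122-5p had 1.59 to 6.92. The nervous system miRNAs summed to 565 and 617 in EV and 755 and 698 in R273H, and of the 3 tested 0 were higher and 1 lower. The most abundant, miR-128-3p, had 366 and 384 in EV and 647 and 583 in R273H without being called (0.71, adjusted p = 0.092, limma). miR-137 had 38.1 and 33.5 in EV and 53.4 and 44.4 in R273H (0.44, adjusted p = 0.48, limma). The lines did not overlap for either of these. miR-124-3p had at most 0.89, and miR-9-5p was lower, with 161 and 193 in EV and 52.3 and 67.6 in R273H (a log2 difference of -1.55, standard error 0.36, adjusted p = 0.0052, limma). The hypoxia miRNA miR-210-3p had 6.23 and 4.78 in EV and 14.4 and 19.6 in R273H and was not called (1.46, adjusted p = 0.061, limma). Whether any cells of these types were present, or had a part in the calls, was not tested.

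Base composition, which the test did not use, had different medians in the higher and the lower called miRNAs. Some of the higher ones, such as miR-17-5p and miR-106a-5p, are near-identical, so they are not independent sequences. The mature sequences of the 30 higher miRNAs with a sequence had a median GC content of 40.02%, those of the 26 lower ones 50% and those of all 270 tested ones 47.8%. The ranges were 19.0% to 63.6% and 31.8% to 80.95%, and these values are a description without a test. The median length was 22 bases in each group. By place, 12 were higher and 12 lower of 118 in introns of protein-coding genes, and 11 higher and 5 lower of 77 in long non-coding RNA genes, which include MIR17HG and DLEU2. The shares called in both places were close to the 20.4% over all miRNAs tested.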

How the data were processed

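Small RNA of the lines was sequenced on an Ion PGM. The authors trimmed reads with FASTX-toolkit and by length, aligned them with SHRiMP to miRBase and the remainder with Novoalign to GRCh37/hg19, and counted them per feature. The deposited signal is a count that the authors divided by a DESeq size factor per library. All values (100%) were whole multiples of 1 read within 0.006, so reads were recovered. Deposited tables of group means, fold changes and p-values were not used. limma 3.58.1 under R 4.3.3 (eBayes with a trend on abundance) was run on log2(value + 1), with Benjamini-Hochberg adjustment over everything tested in a fit. The test was run first on simulated data. Recovered counts entered edgeR 4.0.16 and DESeq2 1.42.0 as alternatives. Hairpins were placed on GRCh37 by exact sequence match or GENCODE 44 symbol. The libraries held 249817 to 536991 miRNA reads. Counting intervals and limits cover counting error only. Named are the 3 higher and 3 lower miRNAs of each class with the smallest p-values, called and most abundant members of families and clusters with 3 or more tested miRNAs, the 5 arm ratios in each direction, the 10 most abundant miRNAs and called list members. Neighbours in a cluster and partner arms are given beside them. Members, lists and rules were chosen with earlier results of these data known. Python 3.11.15, numpy 2.4.6 and pandas 2.3.3 were used.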

Additional observations from a re-analysis of the deposited data

How the results depend on the processing

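With 2 libraries a line, leaving out 1 library gave 0 to 51 called miRNAs, 0 to 38 seed families, 0 to 4 clusters and 0 to 5 arm ratios, against 62, 48, 8 and 11. The line left with 1 library was assumed to vary like the other. For miRNAs, DESeq2 gave 34, TMM rescaling 41 and limma without the trend 39 calls, and 17 of the 62 (4 higher and 13 lower) were called in each of the 11 other settings that kept all libraries and all tested miRNAs without a block. DESeq2 gave 29 families. For clusters, 3 were called without a filter and 3 with size factors of miRNAs only, a setting chosen after seeing the data, as were families completed by name. For arm ratios, 1 was called without the trend, 2 at a mean of at least 10, 1 with a pseudocount of 5 and 0 without a filter (limma, 26 with an unadjusted p-value under 0.05; 9 with edgeR). The replicate numbers did not pair the libraries (correlation of deviations -0.027). With the number as a replicate block limma called 0 miRNAs (101 at an unadjusted p-value under 0.05), 0 families (70), 0 clusters (13) and 11 arm ratios. Of 1248 values of 103 named items under the settings other than leaving out a library, 1086 kept their side of the threshold, 155 lost the call, 7 gained it and 0 reversed. The cause was not tested. Depth limits miRNAs under 10 counts, where 1 read is worth up to 1.59.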

Other observations

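Below the filter of 3 normalized counts, 450 of the 754 miRNAs had no test. Of these, 152 had reads in EV alone, 151 in R273H alone and 147 in both lines. Reads in both R273H libraries and neither EV library were seen for 29, and the reverse for 15. The highest single value among them was 7.97 normalized counts.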
